A study of Mus musculus with 24 samples.

Results

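The 9 genes described here, Phlda3, Ddit4, Tsc1, Tsc2, Sesn1, Sesn2, Sesn3, Prkab1 and Prkab2, code for proteins that hold back the kinases Akt and mTORC1. They were chosen by name, for function, with earlier results of these data known. Each was found in the RNA-Seq files among 21671 genes. The study profiled splenic B and non-B cells of C57/Bl6 mice aged 8 weeks, of Trp53+/+ or Trp53-/- genotype, either left unirradiated (mock) or taken 4 h after 7 Gy of ionizing radiation (IR). B cells were caught on magnetic beads against the surface protein B220, and non-B cells are what ran through the column. Each of the 8 groups of cell type, genotype and treatment had 4 Trp53+/+ or 2 Trp53-/- samples, 24 in all. Trp53-/- mice lack the transcription factor p53 in every cell, so a difference between genotypes need not arise in the cells sampled.

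Growth factors reach mTORC1 through PI3-kinase and Akt, and amino acids reach it through the Rag GTPases on the lysosome. mTORC1 drives protein synthesis and cell growth and holds back autophagy, and in lymphocytes it accompanies the exit from rest. The brakes act at different points: Phlda3 competes with Akt for membrane lipids, Ddit4 and the Tsc1-Tsc2 complex shut off the mTORC1 activator Rheb, sestrins bind the GATOR2 complex that relays amino acid signals, and the AMPK beta subunits Prkab1 and Prkab2 belong to the kinase that senses low energy. Phlda3, Sesn1, Sesn2 and Ddit4 are known p53 targets.

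Values are RPKM, reads per kilobase of gene and per M (mega) exonic reads, a scale that allows levels of different genes to be set side by side. The deposited values give no read counts; their steps gave an estimated depth of 4.62 to 10.84 M reads per sample. Samples were not alike. Of 1440 odorant and vomeronasal receptor genes, most of them taken to be silent in blood cells, between 5.42% and 13.1% were above 0 in the mock and the Trp53-/- samples. Replicates 1 to 4 of the irradiated Trp53+/+ B cells, however, reached 36.7%, 47.3%, 7.01% and 16%, and those of the non-B cells 24.7%, 8.61%, 51.3% and 35.8%. Samples above 15% are called high-receptor samples here, and leaving them out keeps 1 irradiated Trp53+/+ sample per cell type, which is then assumed to vary like the others. The 8 B cell markers summed to between 833.3 and 1124.5 RPKM in B samples but still to between 204.6 and 574.1 in non-B samples, so the non-B fraction held B cell RNA. Trp53 itself was at 21.6 to 21.7 RPKM in mock Trp53-/- B cells against 44.8 to 47.9 in mock Trp53+/+ B cells, and at 24 to 25 against 43.4 to 49.5 in non-B cells. After IR the Trp53-/- non-B samples, at 34.6 and 36.4, overlapped with the Trp53+/+ ones, at 35 to 38.6. Which exons the knockout removes is not given in the sources used here, and in irradiated non-B cells this row does not check the genotype labels.

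In Trp53+/+ B cells Phlda3, Sesn2 and Ddit4 rose after IR, by 107.5, 12.06 and 2.88 times on the ratio of mean RPKM, while Sesn3 fell to 0.4839 and Prkab2 to 0.6522 of the mock mean. Thus 3 of the 9 genes rose and 2 fell, where 12.5% of the 13821 genes tested rose and 12.2% fell (limma on log2(RPKM + 0.5), a Benjamini-Hochberg adjusted p below 0.05 and a log2 change above 0.58 in size). In Trp53+/+ non-B cells the same 3 genes, Phlda3, Sesn2 and Ddit4, rose, by 27.96, 4.616 and 1.829 times, and 0 of the 9 fell, where 5.74% of 14018 genes rose and 4.11% fell. Over all genes these calls, 805 higher and 576 lower, came to 324 and 186 with the share of receptor genes above 0 as a covariate. In Trp53-/- B cells 0 of the 9 rose by limma, where 13.1% of genes rose, and 3 fell, where 11.2% fell, with 3 of the 9 at an unadjusted p below 0.05. In Trp53-/- non-B cells 0 of the 9 passed in either direction (1 at an unadjusted p below 0.05), where 0.442% of genes passed. With p53, mock and IR samples had no overlap for 7 of the 9 genes among B cells, and non-B cells showed this for 4 of the 9. Over all genes tested, mock and IR samples failed to overlap for 46.2% in B cells and for 22.1% in non-B cells. In bulk samples such as these, a change in the share of a cell type and a change in RNA per cell cannot be told apart. The median log2 change of the 9 genes was 0.2 in Trp53+/+ B cells against 0.01 over all genes tested, and -0.04 in non-B cells against -0.03.

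**Figure D1:**
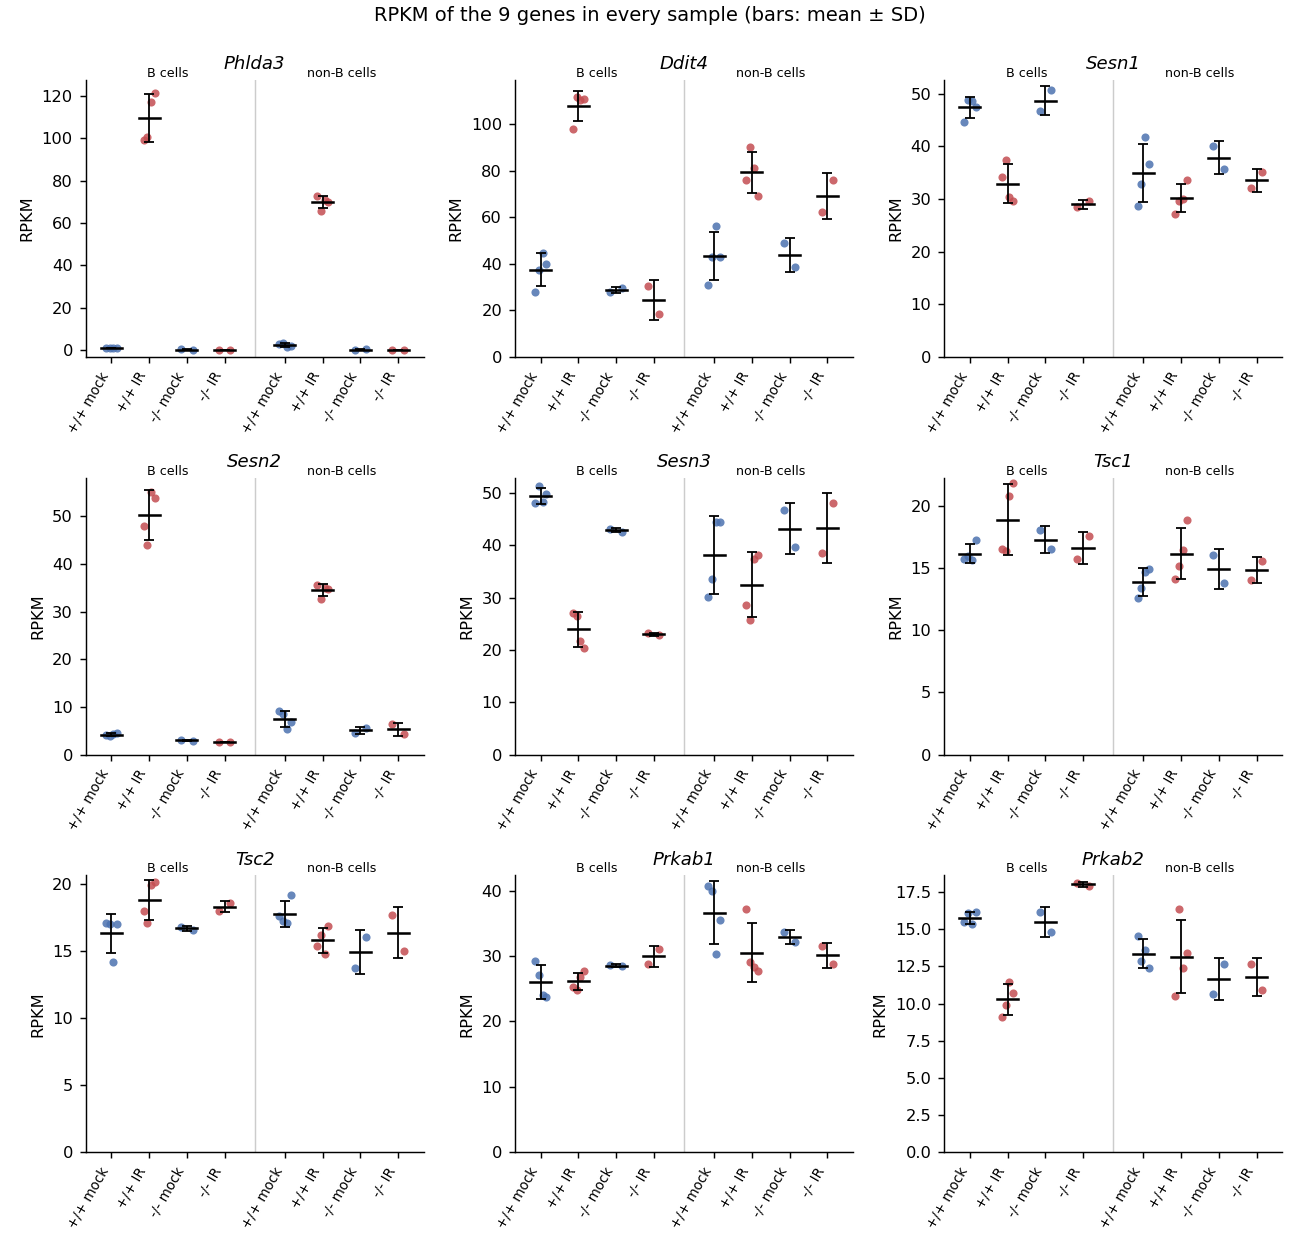
RPKM (vertical axis, a scale of its own for each gene) of the 9 genes in the 4 groups of B cells (left of the grey line) and of non-B cells (right). The axis runs from 0 upward, or from just below 0 for Phlda3. There is 1 point per sample, blue for mock and red for IR. Black bars are the mean ± SD of 4 Trp53+/+ (+/+) or 2 Trp53-/- (-/-) samples. Phlda3 and Sesn2 stand high only in the irradiated +/+ groups, both irradiated -/- non-B samples of Ddit4 lie above their mock samples, and Sesn1 and Sesn3 are low in irradiated B cells of both genotypes.

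Phlda3 made the largest step of the 9. It codes for a small protein that is little more than a pleckstrin homology domain. In mock Trp53+/+ B cells it lay at 1.06, 1.02, 1.07 and 0.92 RPKM, and after IR at 98.9, 100.3, 117 and 121 RPKM. The mock values stand for only about 12.5 to 16.7 reads per sample, so the 107.5 times given above is imprecise. Those 4 irradiated samples, a mean of 109 ± 11 RPKM (SD, n = 4), held the highest Phlda3 levels of the series. Its values in Trp53+/+ non-B cells went from 3.02, 3.25, 1.67 and 2.05 RPKM to 72.6, 65.8, 71 and 70.1 RPKM, again with no overlap. The log2 difference was 6.17 (SE 0.13, adjusted p = 1.88e-11) in B cells and 4.59 (SE 0.22, adjusted p = 1.63e-07) in non-B cells.

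Without p53 Phlda3 was close to absent. The Trp53-/- B samples read 0.52 and 0.23 RPKM in mock and 0 and 0.07 RPKM after IR, which is about 7.3 and 3.1 reads against 0 and 1. With so few reads no fold is given, although the log2 difference of -0.69 (adjusted p = 0.0113) passed the thresholds. It did not pass without mock replicate 1 (adjusted p = 0.128), without irradiated replicate 1 (adjusted p = 0.0659) or with a pseudocount of 1 (-0.4, adjusted p = 0.0546). In Trp53-/- non-B cells the values were 0.07 and 0.55 RPKM in mock and 0.13 and 0.09 RPKM after IR, and the groups overlapped. By group mean, the order was irradiated Trp53+/+ B cells, irradiated Trp53+/+ non-B cells, mock Trp53+/+ non-B cells and mock Trp53+/+ B cells, each apart from the next in every sample. The Trp53-/- groups followed in the order mock B, mock non-B, irradiated non-B and irradiated B cells, of which the first 3 overlapped with their neighbours and the last pair did not.

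Phlda3 has 2 paralogs. Phlda1, the founder of the family, rose from between 1.04 and 1.87 RPKM to between 5.71 and 9.24 RPKM in Trp53+/+ B cells (log2 difference 2.08, SE 0.2, adjusted p = 3.89e-06). It also rose in Trp53+/+ non-B cells, from between 1.98 and 2.92 to between 3.93 and 7.49 RPKM (0.89, SE 0.2, adjusted p = 0.012). Its response differed between genotypes in B cells (difference 2.15, SE 0.35, adjusted p = 0.00143), while in non-B cells that difference was 0.34 with a 95% interval of -0.41 to 1.1 (adjusted p = 0.563). Phlda2, known as an imprinted gene of the placenta, did not enter the B cell fit, being at 0 in most B samples. Phlda2 in Trp53+/+ non-B cells read 2.94, 1.4, 0.64 and 1.46 RPKM in mock and 0.17, 0, 0.16 and 0 RPKM after IR, without overlap. It entered the non-B fit through mock samples alone, so these values too are given without a test. The 8 erythroid markers moved with it, from sums of 370.3, 359.6, 123.3 and 141.9 RPKM in those mock samples to 70.7, 28.6, 30.6 and 40.7 RPKM after IR, and their part in this pattern was not tested.

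Ddit4, also called Redd1, frees the Tsc complex to act on Rheb and is induced by many stresses. It was well expressed before IR, at 27.9, 37.4, 44.8 and 39.8 RPKM in mock Trp53+/+ B cells, and lay at 98.1, 112, 111 and 111 RPKM after IR. All 4 irradiated B samples stood above all 4 mock samples. The log2 difference was 1.53 (SE 0.15, adjusted p = 5.37e-06). Ddit4 in Trp53+/+ non-B cells went from 30.9, 43.1, 56.4 and 43.1 RPKM to 76.3, 90.3, 81.5 and 69.3 RPKM, also without overlap (log2 difference 0.89, SE 0.16, adjusted p = 0.00405).

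Without p53 the values of the 2 cell types lay in different directions, a contrast that was not tested. For Trp53-/- B cells Ddit4 read 27.8 and 29.8 RPKM in mock and 30.7 and 18.2 RPKM after IR, and the groups overlapped (log2 difference -0.28, 95% interval -0.75 to 0.2, adjusted p = 0.345), although without irradiated replicate 1 it came to -0.65 (adjusted p = 0.0371). Of the Trp53-/- non-B cells both irradiated samples, 62.2 and 76.2 RPKM, stood above both mock samples, 49 and 38.5 RPKM. That difference of 0.66 (95% interval 0.16 to 1.16) did not pass the test after adjustment (adjusted p = 0.191). Accordingly the genotype difference of the response was 1.81 (SE 0.27, adjusted p = 7.37e-04) in B cells, whereas in non-B cells it was 0.23 with a 95% interval of -0.38 to 0.84 (adjusted p = 0.644). The Ddit4 increase in Trp53+/+ non-B cells lost its call (1.08, adjusted p = 0.102) with the high-receptor samples left out, which keeps irradiated replicate 2 alone.

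The Ddit4 locus also held the best match to the p53 response element among the 9 genes, which is why its sequence is shown. The search took the unsplit element, 2 repeats of 10 bases with no spacer, from 5 kb before to 2 kb after the gene start in mm9 with the GENCODE annotation, and required the C and G of the core of each repeat. The element is its own reverse complement, so a single pass covers both strands. Only 31 of 18827 genes (0.165%) had a match with 0 mismatches, and 1 of these was Ddit4, on chromosome 10, upstream of the gene. The match at chr10:59419209-59419228 is centred 4700 bases before the gene start, and Ddit4 runs on the minus strand from 59414518 to 59412423. It reads as follows on the strand of the gene, with the 4-base cores in capitals.
Ddit4: aagCATGtccaggCTAGccc
With up to 3 mismatches, which 29.7% of all genes reach, Sesn1 was the other member with a match, centred 4490 bases before its start, at chr10:41525880-41525899, also outside the gene.
Sesn1: aaaCAAGagcagaCTGGtct
Phlda3 and Sesn2 had none at up to 3 mismatches in this window, and elements with a spacer or farther away were not searched. The search used a single start per gene, the outermost in the annotation. A further Sesn1 promoter that RefSeq lists inside the gene (chr10:41887189-41887438, GRCm38.p6) was thus not covered. A match is a description of sequence and no evidence of binding. The limit of 3 was set after seeing that Ddit4 alone matched with up to 2 mismatches, which 7.2% of genes did.

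The promoters of the 3 genes that rose in both cell types are shown because these genes moved together. Each is the 250 bases before the start in RefSeq (GRCm38.p6), read on the strand of the gene, with CCAAT boxes (CCAAT or its reverse complement ATTGG) and GC boxes (GGGCGG or CCGCCC) in capitals.
Phlda3, chr1:135765835-135766084, plus strand: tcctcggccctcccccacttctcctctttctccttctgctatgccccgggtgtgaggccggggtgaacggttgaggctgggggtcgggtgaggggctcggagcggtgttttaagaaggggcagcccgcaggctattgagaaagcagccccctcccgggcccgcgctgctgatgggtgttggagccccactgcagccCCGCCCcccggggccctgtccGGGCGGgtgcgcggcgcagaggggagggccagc
Ddit4, chr10:59951771-59952020, minus strand: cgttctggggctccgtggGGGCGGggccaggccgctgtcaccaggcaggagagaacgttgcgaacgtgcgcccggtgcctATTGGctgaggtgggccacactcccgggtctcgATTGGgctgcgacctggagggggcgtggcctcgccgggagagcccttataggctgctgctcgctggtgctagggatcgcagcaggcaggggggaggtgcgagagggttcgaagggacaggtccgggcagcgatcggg
Sesn2, chr4:132510457-132510706, minus strand: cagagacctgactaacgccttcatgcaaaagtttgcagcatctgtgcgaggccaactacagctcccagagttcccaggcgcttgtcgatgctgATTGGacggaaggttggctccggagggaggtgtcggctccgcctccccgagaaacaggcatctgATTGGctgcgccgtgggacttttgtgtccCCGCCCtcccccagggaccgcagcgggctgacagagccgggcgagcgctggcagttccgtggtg
Ddit4 and Sesn2 each held 2 CCAAT boxes and 1 GC box, and Phlda3 held 0 CCAAT boxes and 2 GC boxes. Among all 32851 RefSeq promoters of this length 33.8% held a CCAAT box and 32.7% a GC box, and of the 9 genes 4 and 6 did.

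Ddit4l, the paralog of Ddit4 known as Redd2, was near 0 in mock cells and higher after IR. In Trp53+/+ B cells it went from 0.14, 0.08, 0.29 and 0.19 RPKM to 9.33, 8.03, 12.6 and 10.4 RPKM. The non-B cells of that genotype went from 0.13, 0.24, 0.13 and 0.08 RPKM to 2.97, 3.1, 2.52 and 3.32 RPKM. No sample overlapped between treatments, and the mock values stand for only 2.1 to 7.4 reads per sample. In the 8 Trp53-/- samples Ddit4l was at or under 0.25 RPKM. Ddit4l exceeded the entry level of 1 RPKM in irradiated Trp53+/+ samples alone, so it was admitted by the outcome and its values are given without a test.

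Tsc1 and Tsc2 form the complex on which Akt, AMPK and Ddit4 converge, and neither passed the test in any cell type or genotype. Tsc1 ranged from 15.7 to 17.2 RPKM in mock and from 16.3 to 21.8 RPKM in irradiated Trp53+/+ B cells (log2 difference 0.21, 95% interval -0.003 to 0.42, adjusted p = 0.0917). The irradiated B samples fell into a low pair, replicates 1 and 2 at 16.5 and 16.3 RPKM, and a high pair, replicates 3 and 4 at 20.8 and 21.8 RPKM. Replicates 1 and 2 are those with 36.7% and 47.3% of receptor genes above 0. Tsc2 lay between 14.2 and 17.1 RPKM in mock and between 17.1 and 20.2 RPKM in irradiated Trp53+/+ B cells (0.2, 95% interval 0.03 to 0.37, adjusted p = 0.0511). Tsc2 in Trp53+/+ non-B cells lay the other way, at 17.1 to 19.2 RPKM in mock and 14.8 to 16.9 RPKM after IR (-0.16, 95% interval -0.35 to 0.03, adjusted p = 0.201).

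The 3 sestrins moved apart. Sesn2 was the minor form in mock cells, at 4.04, 3.89, 4.23 and 4.5 RPKM in Trp53+/+ B cells, and lay at 48, 43.9, 55.1 and 53.9 RPKM after IR. The step in Trp53+/+ non-B cells was from 9.18, 8.58, 5.41 and 6.74 RPKM to 35.7, 32.7, 34.9 and 34.8 RPKM. In neither cell type did mock and irradiated samples overlap. The log2 differences were 3.44 (SE 0.09, adjusted p = 6.88e-11) in B cells and 2.16 (SE 0.16, adjusted p = 6.9e-06) in non-B cells. The Trp53-/- samples read 3.05 and 2.88 RPKM in mock and 2.73 and 2.7 RPKM in irradiated B cells, and 4.57 and 5.58 RPKM in mock and 6.31 and 4.34 RPKM in irradiated non-B cells. Neither Trp53-/- difference passed the test (-0.11, 95% interval -0.4 to 0.18, and 0.05, 95% interval -0.46 to 0.55). The genotype difference was 3.55 (SE 0.16, adjusted p = 4.18e-08) in B cells and 2.11 (SE 0.28, adjusted p = 0.00175) in non-B cells. The latter lost its call (2.04, adjusted p = 0.0616) with the high-receptor irradiated samples left out.

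Sesn3, which is known as a target of the FoxO factors that Akt restrains, was a major form in mock B cells, at 48.2, 51.4, 48.3 and 49.9 RPKM in Trp53+/+ samples, and lay at 27.1, 26.4, 21.8 and 20.4 RPKM after IR. Sesn3 in Trp53-/- B cells went from 43.2 and 42.6 RPKM to 23.2 and 22.8 RPKM. The samples separated by treatment in both genotypes. Sesn3 fell by 1.04 on the log2 scale (SE 0.08, adjusted p = 6.58e-07) in Trp53+/+ B cells and fell by 0.88 (SE 0.12, adjusted p = 8.92e-05) in Trp53-/- B cells. The difference between genotypes was -0.16 with a 95% interval of -0.47 to 0.15 (adjusted p = 0.489), but it came to -0.32 and passed (adjusted p = 0.0491) with the receptor share as a covariate.

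In Trp53+/+ non-B cells Sesn3 read 30.1, 33.6, 44.4 and 44.4 RPKM in mock and 28.5, 25.8, 37.3 and 38.2 RPKM after IR, and the groups overlapped (-0.23, 95% interval -0.58 to 0.12, adjusted p = 0.341). Replicates 1 and 2 were low and replicates 3 and 4 high under both treatments. The 8 T cell markers were split in the same way, at 381.8, 394.3, 545.3 and 551.4 RPKM in mock and 371.7, 303.7, 406 and 401.7 RPKM after IR, and their part in the Sesn3 levels was not tested. In Trp53-/- non-B cells Sesn3 was at 46.7 and 39.7 RPKM in mock and 38.6 and 48 RPKM after IR.

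Sesn1 behaved like Sesn3 in direction, with a smaller step. In Trp53+/+ B cells it went from 44.6, 48.9, 48.6 and 47.6 RPKM to 34.2, 37.5, 30.5 and 29.6 RPKM, with no overlap. The log2 difference of -0.52 (SE 0.07, adjusted p = 8.2e-05) missed the fold threshold of 0.58, though it passed it (-0.63, adjusted p = 4.5e-04) with the high-receptor samples left out and also without irradiated replicate 2 alone (-0.59, adjusted p = 1.81e-05). In Trp53-/- B cells Sesn1 fell from 46.8 and 50.7 RPKM to 28.4 and 29.6 RPKM, by 0.74 on the log2 scale (SE 0.1, adjusted p = 1.47e-04). The genotype difference was 0.21, 95% interval -0.06 to 0.49 (adjusted p = 0.272). With Sesn3 and Phlda3, Sesn1 made 3 of the 9 genes that fell in Trp53-/- B cells, where 11.2% of genes fell and 13.1% rose. In non-B cells Sesn1 ranged from 28.7 to 41.8 RPKM in mock and from 27.2 to 33.6 RPKM in irradiated Trp53+/+ samples (-0.2, 95% interval -0.44 to 0.04, adjusted p = 0.215), and Trp53-/- samples read 40.1 and 35.7 RPKM in mock and 32 and 35.1 RPKM after IR.

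Because RPKM is per length, the 3 sestrins can be added up. The sum was 101 ± 3.1 RPKM (SD, n = 4) in mock and 107.1 ± 2.3 RPKM in irradiated Trp53+/+ B cells. The 2 means lay 6.1 RPKM apart, while the makeup of the sum turned over. Sesn2 gave 3.7% to 4.4% of it in mock and 40.7% to 51.9% after IR, and Sesn3 went from 47.8% to 49.7% down to 19.6% to 24.8%. In Trp53-/- B cells, where Sesn2 stayed low, the sum went from 93.1 and 96.2 RPKM to 54.3 and 55.1 RPKM, 57.83% of its mock mean. In Trp53+/+ non-B cells the sum was 80.6 ± 11 RPKM in mock and 97.1 ± 8.7 RPKM after IR, and Sesn2 gave 5.9% to 13.5% and then 32.6% to 39% of it. In Trp53-/- non-B cells it read 91.3 and 81 RPKM in mock and 77 and 87.5 RPKM after IR. These sums were formed after the values had been seen and are given without a test.

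**Figure D2:**
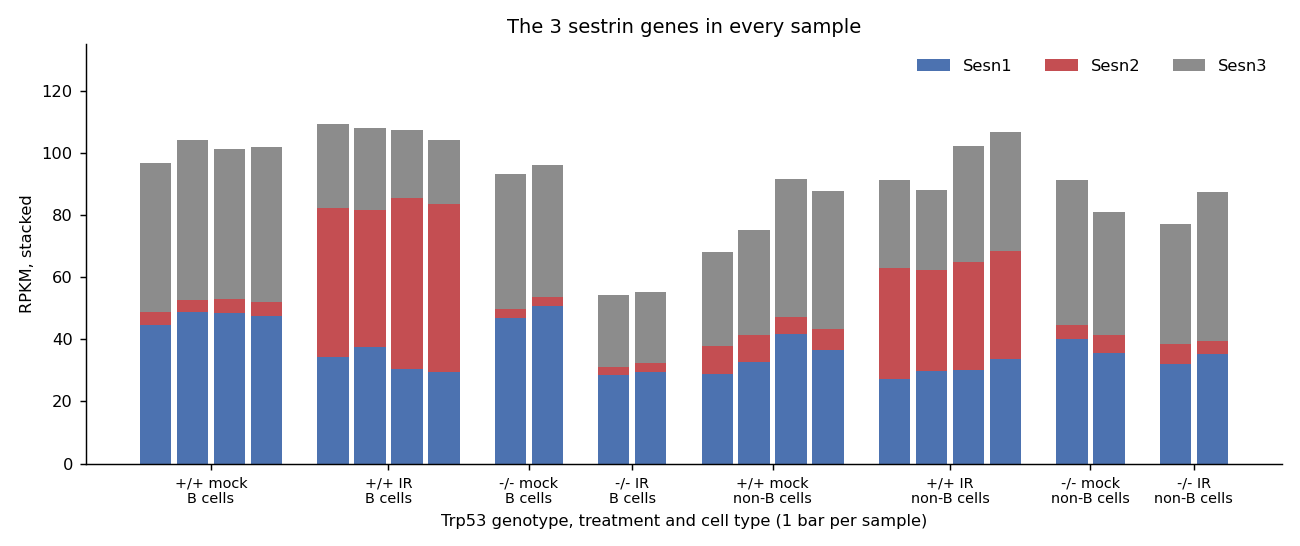
Stacked RPKM (vertical axis) of Sesn1 (blue), Sesn2 (red) and Sesn3 (grey), with 1 bar per sample, grouped by Trp53 genotype, treatment and cell type. The bars of irradiated +/+ B cells, at 104 to 109.3 RPKM, are about as tall as those of mock +/+ B cells, at 96.8 to 104.2 RPKM, but with red in place of blue and grey, and the 2 bars of irradiated -/- B cells are the shortest.

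The AMPK beta subunits, which tether the kinase complex and bind glycogen, differed from each other. Prkab2 fell in Trp53+/+ B cells from 15.5, 16.1, 15.4 and 16.1 RPKM to 9.07, 9.9, 11.5 and 10.7 RPKM. No sample overlapped, and the log2 difference of -0.6 (SE 0.08, adjusted p = 4.25e-05) was just past the fold threshold. It came to -0.44 (adjusted p = 0.00496), short of that threshold, with the 3 high-receptor irradiated samples left out, and to -0.54 (adjusted p = 1.25e-04) without irradiated replicate 1 alone. Prkab2 in Trp53-/- B cells lay at 16.2 and 14.8 RPKM in mock and at 18.1 and 17.9 RPKM after IR, above mock, a difference of 0.21 (95% interval -0.03 to 0.45) that did not pass the test (adjusted p = 0.144). The genotype difference of -0.81 (SE 0.13, adjusted p = 0.00159) passed. Prkab2 in Trp53+/+ non-B cells ranged from 12.4 to 14.6 RPKM in mock and from 10.5 to 16.4 RPKM after IR (-0.04, 95% interval -0.32 to 0.25, adjusted p = 0.872), and in Trp53-/- non-B cells from 10.6 to 12.7 RPKM and from 10.9 to 12.7 RPKM.

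Prkab1 was the more abundant subunit in every sample, with 59.5% to 78% of the sum of both over all 24 samples. It passed no test of IR against mock. In B cells it lay between 23.7 and 29.2 RPKM in mock and between 24.9 and 27.7 RPKM in irradiated Trp53+/+ samples (0.01, 95% interval -0.15 to 0.17, adjusted p = 0.922). Non-B cells with p53 lay between 30.3 and 40.7 RPKM in mock and between 27.6 and 37.2 RPKM after IR (-0.26, 95% interval -0.51 to -0.01, adjusted p = 0.126). The sum of both subunits was 41.8 ± 2.6 RPKM in mock and 36.4 ± 2.2 RPKM in irradiated Trp53+/+ B cells, against 43.2 and 44.9 RPKM and then 46.9 and 49 RPKM in Trp53-/- B cells.

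**Figure D3:**
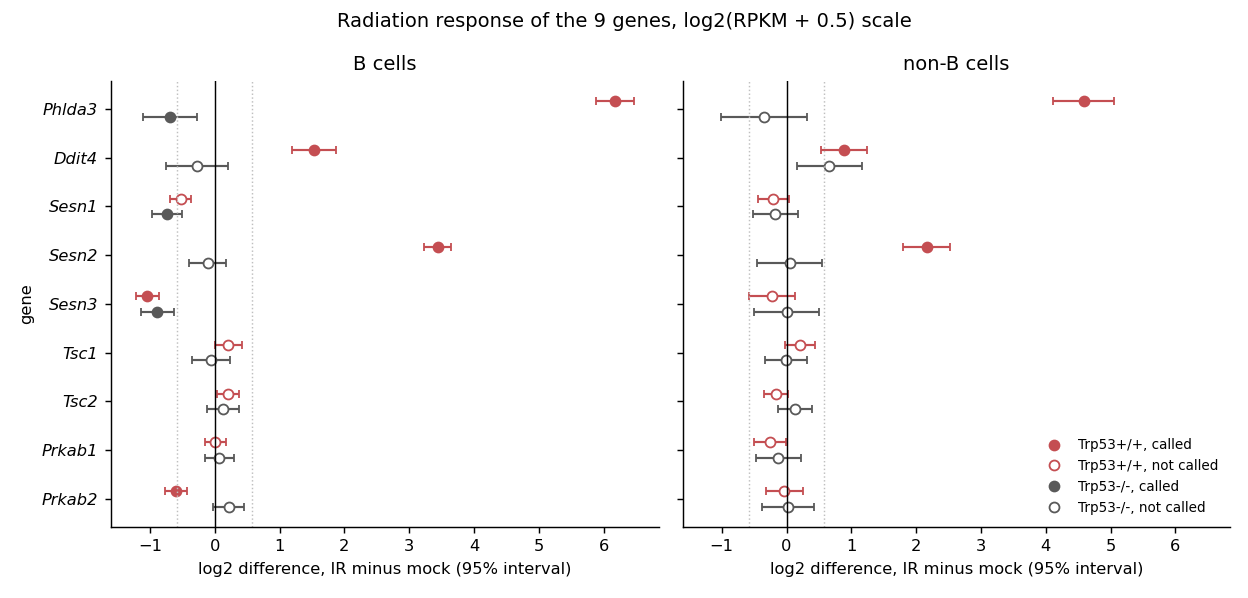
Log2 difference between IR and mock (horizontal axis, log2(RPKM + 0.5) scale) with its 95% interval for the 9 genes in B cells (left) and non-B cells (right), red for Trp53+/+ and grey for Trp53-/-; filled points passed the test and the fold threshold of 0.58 (dotted lines). Red and grey lie far apart for Phlda3 and Sesn2 in both panels and for Ddit4 in B cells, and side by side for Sesn1 and Sesn3.

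Whether a response depended on p53 was asked by the difference between genotypes in the size of the IR response. In B cells 4 of the 9 genes differed: Phlda3 by 6.86 (SE 0.23, adjusted p = 1.17e-08), Sesn2 and Ddit4, all higher with p53, and Prkab2, lower with p53. Over all genes 8.14% differed upward and 10.6% downward, 1125 against 1469 genes, a split that turned to 1361 against 943 under median-ratio scaling. With the receptor share as a covariate 6 of the 9 differed, the additional ones being Sesn3 (-0.32, adjusted p = 0.0491) and Tsc1 (0.44, adjusted p = 0.0443). In non-B cells 2 of the 9 differed, Phlda3 by 4.93 (SE 0.37, adjusted p = 4.48e-05) and Sesn2, both upward, where 3.98% of genes differed upward and 3.37% downward. Over all genes in non-B cells these were 558 and 473 genes, and 263 and 138 with the receptor share as a covariate. The comparisons of the 2 genotypes use different control samples, but each response and its genotype difference share samples and are not independent.

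Before IR few differences between genotypes passed the test. In B cells 0 of the 9 were called by limma (2 at an unadjusted p below 0.05, Phlda3 and Sesn2), where 0.0506% of genes were called. Phlda3 was nevertheless lower in both mock Trp53-/- B samples than in all 4 mock Trp53+/+ ones (log2 difference -0.81, 95% interval -1.17 to -0.46, adjusted p = 0.269), and so was Sesn2 (-0.43, 95% interval -0.68 to -0.18, adjusted p = 0.562). In non-B cells 1 of the 9, Phlda3, was lower without p53 (-1.91, SE 0.26, adjusted p = 0.0303), where 0.0428% of genes were called. That call was lost with a pseudocount of 0.1 (-2.9, adjusted p = 0.0569) or 1 (-1.41, adjusted p = 0.0529). It was also lost on leaving out any single sample other than mock Trp53+/+ replicate 3 or mock Trp53-/- replicate 2, at log2 differences from -1.98 to -1.48 and adjusted p values from 0.058 to 0.423. In Trp53-/- non-B cells 0 of the 9 were called after IR (1 at an unadjusted p below 0.05, Ddit4), where 0.442% of genes were called.

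The log2 difference between IR and mock was itself different between Trp53+/+ B and non-B cells for 6 of the 9 genes. Taken as B minus non-B cells, this signed contrast was positive for Phlda3 at 1.59 (SE 0.2, adjusted p = 3.5e-05), Sesn2 at 1.28 (SE 0.18, adjusted p = 9.02e-05), Ddit4 at 0.64 (SE 0.22, adjusted p = 0.0369) and Tsc2 at 0.36 (SE 0.12, adjusted p = 0.0267), and negative for Sesn3 at -0.81 (SE 0.2, adjusted p = 0.00664) and Prkab2 at -0.56 (SE 0.16, adjusted p = 0.0143). Sesn3 and Prkab2 were thus further below mock in B cells, and Tsc2 lay above mock in B cells and below it in non-B cells without passing the test in either. Over all 14598 genes 15.4% differed upward and 12.6% downward. Since the 9 genes were chosen with earlier results of these data known, 6 of 9 is no test of the set against those shares. With the high-receptor irradiated samples left out 3 of the 6 remained, Phlda3 (1.77), Sesn2 (1.49) and Prkab2 (-0.73), with 1 irradiated sample in each cell type. The other 3 missed the threshold there at values of 0.49 for Ddit4, 0.42 for Tsc2 and -0.63 for Sesn3. For Ddit4 the call held on leaving out mock B replicate 3 or 4, irradiated B replicate 1, mock non-B replicate 1 or irradiated non-B replicate 2, and was lost without any other sample (adjusted p from 0.0523 to 0.0748), with no expression filter (adjusted p = 0.0539), under median-ratio scaling (0.59, adjusted p = 0.0716) and under quantile normalization (0.44, adjusted p = 0.168). For Tsc2 it was lost without mock B replicate 3, irradiated B replicate 3 or 4, mock non-B replicate 4 or irradiated non-B replicate 3 (adjusted p from 0.0535 to 0.0581), and Sesn1 gained a call (-0.41, adjusted p = 0.0318) without mock non-B replicate 3.

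The larger steps of Phlda3 and Sesn2 in B cells began from lower levels and ended at higher ones. In irradiated Trp53+/+ cells Phlda3 was higher in B than in non-B cells by 0.64 (limma, SE 0.14, adjusted p = 8.59e-04). Sesn2 was higher there by 0.53 (SE 0.13, adjusted p = 0.00167), short of the fold threshold. In mock Trp53+/+ cells both were lower in B than in non-B cells, Phlda3 by -0.95 (SE 0.14, adjusted p = 4e-05) and Sesn2 by -0.75 (SE 0.13, adjusted p = 1.48e-04), 2 of the 9 genes where 17.2% of genes were lower and 7.38% higher in B cells. That split, 1077 higher against 2510 lower, became 1880 against 1830 under quantile normalization, and under it neither gene passed the fold threshold (-0.47 and -0.37). Sesn1 (0.45), Sesn3 (0.39) and Prkab1 (-0.48) had adjusted p values of 0.00238, 0.037 and 0.00171 but missed that threshold. Among the mock non-B samples Phlda3 and Sesn2 were highest in replicates 1 and 2, at 3.02 and 3.25 RPKM and at 9.18 and 8.58 RPKM. Those samples also held the highest erythroid marker sums, 370.3 and 359.6 RPKM against 123.3 and 141.9 RPKM in replicates 3 and 4. The part of erythroid cells in these levels was not tested.

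Of 90 other genes in 5 lists of the pathway, 89 were found in the files and 88 entered the B cell fit. In Trp53+/+ B cells 9 of the 88 rose and 12 fell, shares near those of all genes. In Trp53-/- B cells 4 rose and 13 fell, against 13.1% and 11.2% of all genes. The 9 and the 4 include Acacb, which entered the fit through irradiated Trp53+/+ samples alone. In non-B cells 2 of 87 rose and 2 fell in Trp53+/+ samples, against 5.74% and 4.11%, and limma called 0 of 87 in Trp53-/- samples, against 0.442%. The genotype difference passed for 9 genes upward and 7 downward in B cells, against 8.14% and 10.6%, and for 1 gene, Foxo3, upward in non-B cells, against 3.98%.

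Of the listed genes 2 passed in Trp53+/+ cells of both types, Ulk1 and Phlpp2, and they went in opposite directions. Depdc5 (0.576, adjusted p = 0.0075) and Foxo3 (0.564, adjusted p = 0.00117), which rose in Trp53+/+ B cells, came just short of the fold threshold in non-B cells. Ulk1, the kinase that starts autophagy and is held back by mTORC1, rose from a mean of 11.51 to 26.98 RPKM in Trp53+/+ B cells (log2 difference 1.19, SE 0.1, adjusted p = 1.08e-06) and from 22.57 to 34.24 RPKM in non-B cells (0.59, SE 0.14, adjusted p = 0.0134). In Trp53-/- B cells its means were 11.18 and 8.86 RPKM, and the genotype difference was 1.51 (SE 0.17, adjusted p = 1.01e-04). The genotype difference of Ulk1 in non-B cells, 0.71 (SE 0.23, adjusted p = 0.0878), did not pass. Phlpp2, a phosphatase that removes an activating phosphate from Akt, fell from 9.72 to 4.42 RPKM in Trp53+/+ B cells (-1.05, SE 0.12, adjusted p = 1.38e-05) and from 8.24 to 4.44 RPKM in non-B cells (-0.8, SE 0.19, adjusted p = 0.0143). It fell in Trp53-/- B cells too, from 9.88 to 5.24 RPKM (-0.86, SE 0.17, adjusted p = 0.00151).

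The 5 lists are described in turn, and no test compared them. Over all genes tested 12.5% rose and 12.2% fell in Trp53+/+ B cells, and 13.1% rose and 11.2% fell in Trp53-/- B cells. In the list of lipid and Akt phosphatases, further brakes on the same pathway, 5 of 9 fell in Trp53+/+ B cells (Inpp4a, Inpp5k, Inppl1, Phlpp2 and Pik3ip1) and 4 of 9 fell in Trp53-/- B cells, with medians of -0.58 and -0.51 against 0.01 and 0.02 over all genes tested. In the PI3K and Akt arm 1 of 28, Foxo3, rose and 3 fell in Trp53+/+ B cells, while 6 fell in Trp53-/- B cells. Foxo3, a transcription factor that Akt keeps out of the nucleus, went from a mean of 26.56 to 66.18 RPKM with p53 (1.3, SE 0.07, adjusted p = 2.85e-08) and from 25.16 to 14.66 RPKM without it (-0.76, SE 0.1, adjusted p = 9.45e-05). In the mTORC1 list 3 of 15 rose (Eif4ebp1, Rptor and Ulk1) and 1 fell, Tfeb. In the list of amino acid sensors 3 of 23 rose in Trp53+/+ B cells, namely Depdc5 and Nprl3 of the GATOR1 complex and Gatsl3, now called Castor1. The third GATOR1 subunit, Nprl2, was at -0.09 (adjusted p = 0.61), and Gatsl2, now called Castor2, was at -0.57 (adjusted p = 0.027), short of the fold threshold. Depdc5 went from 17.86 to 45.12 RPKM (1.31, SE 0.07, adjusted p = 3.17e-08), and its genotype difference was 1.72 (SE 0.13, adjusted p = 2.07e-06). In the AMPK list 2 of 13 passed upward and 3 fell. The 2 were the AMPK substrates Acaca, which also rose in Trp53-/- B cells, and Acacb. Acacb entered the fit through irradiated Trp53+/+ samples alone, so it was admitted by the outcome and its values are given without a test. Its means went from 0.22 to 0.72 RPKM in Trp53+/+ B cells and from 0.23 to 0.88 RPKM in Trp53-/- B cells. In Trp53+/+ B cells Pik3ip1 (-0.5803), Camkk2 (-0.5804) and Rptor (0.5806) were called just past the fold threshold of 0.58. Other than Ulk1 and Phlpp2, the genes of these lists were picked for naming after their values were seen.

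**Figure D4:**
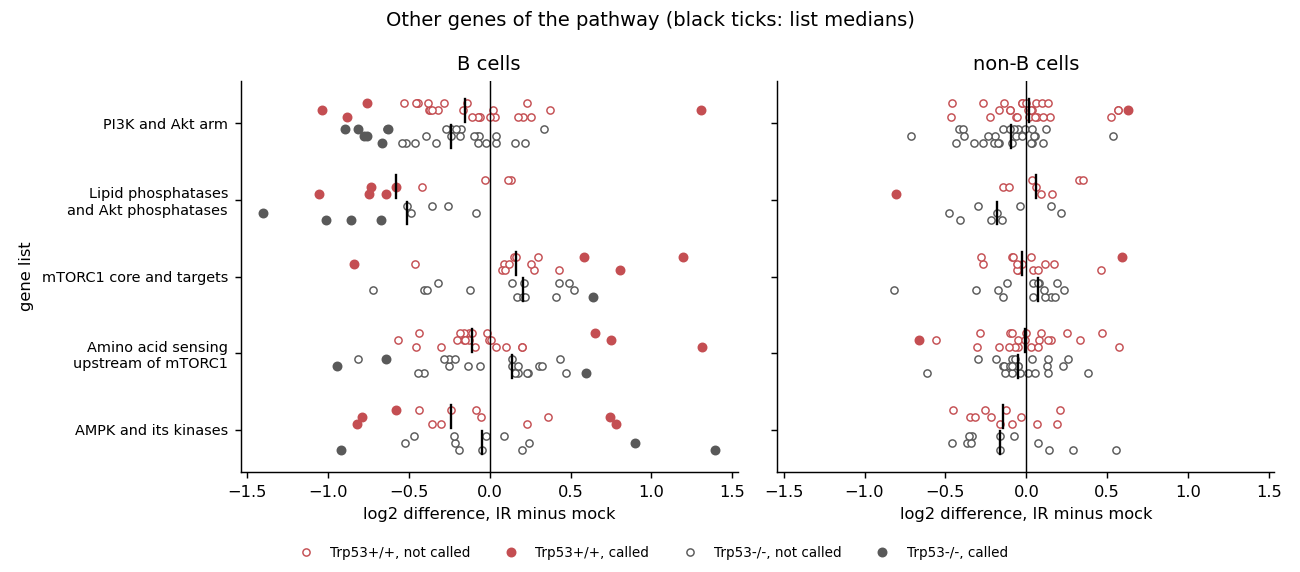
Log2 difference between IR and mock (horizontal axis) for the genes of 5 lists of the Akt and mTORC1 pathway (vertical axis) in B cells (left) and non-B cells (right), 1 point per gene, red for Trp53+/+ and grey for Trp53-/-; filled points passed the test and black ticks are list medians. In B cells points past the threshold lie on both sides of 0, and the phosphatase list sits to the left of 0 in both genotypes with medians of -0.58 and -0.51; in non-B cells few points are filled.

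The genes whose pattern over the 24 samples was most like those of the 3 induced brakes were found among 14598 genes by Pearson's r of log2(RPKM + 0.5), which is a description without a test, over samples that share 8 groups. For Phlda3 they were Psrc1 (r = 0.989), a spindle protein, 9230114K14Rik (r = 0.982) and Cdc42bpg (r = 0.979). For Sesn2 they were Cdkn1a (r = 0.992), the cell cycle inhibitor p21, Cpped1 (r = 0.985) and Psrc1 (r = 0.983). For Ddit4 the best values were lower, with Bbc3 (r = 0.907), the apoptosis gene Puma, Zfp53 (r = 0.902) and Zmat3 (r = 0.901). Cdkn1a averaged 1.08 RPKM in mock and 89.46 RPKM in irradiated Trp53+/+ B cells, 4.57 and 77.3 RPKM in non-B cells, and 0.64 RPKM in irradiated Trp53-/- B cells. Zfp53, a zinc finger gene, averaged 23.95 RPKM in mock and 33.64 RPKM in irradiated Trp53-/- non-B cells, the groups in which Ddit4 too was higher after IR.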

How the data were processed

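RNA of B220+ splenic B cells and of B220- non-B cells was depleted of ribosomal RNA and sequenced by the authors. Per the study's methods and the submitters' processing notes, the authors masked bases of quality below 20, aligned reads to mm9 with TopHat (version 2.0.8 in the notes), removed duplicates down to 1 read, assigned reads to genes by featureCounts (1.4.5) and deposited RPKM values, with exonic reads as the library size. Duplicate removal limits the reads that high genes can hold: the highest gene of a sample had 1420 to 1901 estimated reads per kb, and Phlda3 had 463.4 to 921.6 in irradiated Trp53+/+ B cells. Its effect on these values was not tested. The study's DESeq2 test needs counts, which were not used here.

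The 9 genes and all lists were chosen with earlier results of these data known. Each cell type (12 samples) and the 16 Trp53+/+ samples were fitted by limma (3.58.1, under R 4.3.3; two-sided moderated tests, eBayes with trend=TRUE) on log2(RPKM + 0.5), a scale that understates changes of low genes. A gene entered where any Trp53+/+ sample of the fit exceeded 1 RPKM, which all 9 did, and p was adjusted by Benjamini-Hochberg over all of them. A call needed an adjusted p below 0.05 and a log2 difference above 0.58 in size; differences between responses needed the adjusted p alone. The script was tested on simulated data. Depth was estimated from the steps between low values, of which 60.1% to 72.8% lay within 0.1 of a whole read (20% by chance), so no count test was run. Named were the 9 genes, the paralogs Phlda1, Phlda2 and Ddit4l, listed pathway genes called in Trp53+/+ cells of both types (up to 8), and the 3 genes most like each brake induced in both. Sources name separate mice per condition without tying samples to mice. The criterion for pairing was that deviations of every same-numbered mock and IR sample correlate above 0.1. Trp53+/+ non-B samples met it (r = 0.324, 0.202, 0.262 and 0.303), and B samples did not (0.03, 0.028, 0.111 and 0.087). In the non-B samples numbers 1 with 2 and 3 with 4 were alike too (0.189 to 0.37). The criterion thus cannot tell pairs from such groups of samples. Alternatives were other pseudocounts, filters, scalings, a receptor covariate, samples left out and a replicate block. Other computations used Python 3.11.15, numpy 2.4.6, pandas 2.3.3 and matplotlib 3.10.9.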

Additional observations from a re-analysis of the deposited data

Results flagged for a closer look

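The response to IR differed between genotypes in B cells for Phlda3 (6.86 on the log2 scale), Sesn2 (3.55), Ddit4 (1.81) and Prkab2 (-0.81), and in non-B cells for Phlda3 (4.93) and Sesn2 (2.11), each by a test of the difference itself. It differed between Trp53+/+ B and non-B cells for Phlda3 (1.59), Sesn2 (1.28), Ddit4 (0.64), Tsc2 (0.36), Sesn3 (-0.81) and Prkab2 (-0.56).

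In 3 of the 36 groups of 4 samples examined, 1 sample stood apart from the other 3 by Dixon's criterion, which chance alone meets in about 1 in 20 groups. Ddit4 was at 98.1 RPKM in irradiated Trp53+/+ B cells replicate 1. Tsc2 was at 14.16 RPKM in mock Trp53+/+ B cells replicate 3, and without that sample the cell type difference of its response was 0.3 (adjusted p = 0.058). Prkab1 was at 37.16 RPKM in irradiated Trp53+/+ non-B cells replicate 1.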

How the results depend on the processing

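No gene reversed direction past a threshold under any alternative, and of 2052 values recomputed for single genes 1992 stayed on their side of the threshold, 49 lost a call and 11 gained one. With high-receptor irradiated samples left out, 1 gene differed by genotype in non-B cells and 3 by cell type. The mock genotype call of Phlda3 in non-B cells went to 0 genes with a pseudocount of 0.1 or 1, the receptor share as a covariate or those samples left out, and ranged from 0 to 1 over single samples left out; with 2 Trp53-/- samples a group such low values rest on few reads. For mock B against non-B cells 5 genes were called without the fold threshold and 0 under quantile normalization. The Prkab2 decrease in B cells lay at -0.58 with a pseudocount of 1 or median-ratio scaling and -0.57 under quantile normalization, just short of the fold threshold. Leaving out single samples gave 4 to 6 genes for IR in Trp53+/+ B cells, 2 to 3 in Trp53-/- B cells and 4 to 6 for the cell type difference, and did not change the counts of the 9 genes in the other comparisons, apart from mock non-B cells above. Smaller moves were to 2 genes for IR in Trp53+/+ non-B cells with high-receptor samples left out, to 2 in Trp53-/- B cells with a pseudocount of 1, to 5 for the cell type difference with no filter or another scaling, and to 6 for the genotype difference in B cells with the receptor covariate.

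With a replicate block, 5 of the 9 genes were called in Trp53+/+ B cells, 3 in Trp53+/+ non-B cells, 3 in Trp53-/- B cells and 0 in Trp53-/- non-B cells, 4 and 2 differed by genotype, and 6 by cell type, as without it. Over all genes the block took the genotype differences in non-B cells from 1031 to 610 and the calls in Trp53-/- non-B cells from 62 to 2. With the 2 Trp53-/- pairs crossed, chosen after a correlation of -0.313 was seen between same-numbered samples, the latter count was 108.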
